A study of Rattus norvegicus with 24 samples.

Results

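Eph receptors are the largest family of receptor tyrosine kinases, and their transcripts were followed here in lungs of rats exposed to whole-cigarette smoke condensate (WCSC), with Epha4 in the foreground. The genes were taken by symbol from the deposited tables. The rule named 9 receptor genes (Epha4, Epha1, Epha2, Epha3, Epha7, Ephb2, Ephb3, Ephb4 and Ephb6), of which 8 had a row among the 16881 distinct symbols. Ephb4 was not analysed here. Of these 8 genes, 7 passed the filter on low counts and were among the 11421 genes tested; Ephb2 did not pass. Epha4 was selected on its own CPM in these same libraries, being lower at 20 mg/mL and 6 days, and the other genes were chosen by family name. Its difference there, and at the other doses of day 6 that share the controls, is therefore described without a test.

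The study measured RNA in 24 lung libraries of rats with a WT genotype, in 8 groups of 3. Animals were exposed to 5, 10 or 20 mg/mL of WCSC, the particulate and vapour material collected from burning cigarettes, and sampled at 6 or at 12 days beside a control group of each day. The sources used here do not give strain, sex, age, route of exposure or the vehicle of the controls. Nothing in the labels tells whether each replicate came from its own animal, so p-values measure the spread between samples, which may be technical.

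Ephrins, the ligands of Eph receptors, are held on the surface of neighbouring cells, either by a lipid anchor (the A class) or by a transmembrane stretch (the B class). Contact between cells signals in both directions, into the receptor-bearing cell through its kinase and into the ephrin-bearing cell, and usually changes the actin cytoskeleton, so that cells repel each other, adhere or sort into separate territories. In the lung this system is known from vessels, where ephrin-B2 and EphB4 mark arterial and venous endothelium, and from airway and alveolar epithelium, where EphA2 and ephrin-A1 take part in barrier control and injury. EphA4 is unusual in the family for binding ephrins of both classes, and is best known from axon guidance and synapses.

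Total counts per library ranged from 4795667 to 11109713 with a median of 6840815. Levels are given as CPM, counts relative to the library's effective size after scaling by the trimmed mean of M-values (TMM), and are compared within a gene only, since they are not scaled for transcript length. The lung label was checked against marker genes: the 6 alveolar type I markers summed to between 4070 and 13000 CPM and the 5 measured alveolar type II markers to between 6820 and 27970 CPM over the 24 libraries. One library stood apart, replicate 2 of 20 mg/mL at 12 days, in which the 7 heart muscle markers summed to 2918 CPM, against 13.5 to 196 CPM in the other libraries. It also gave the low ends of both alveolar ranges. The other libraries had at least 6553 CPM for type I and 15500 CPM for type II. Its 7 endothelial markers had the lowest sum of the 24 libraries (1272 CPM), and its 3 basal cell markers the highest (114 CPM). Next to it in both came replicate 3 of 20 mg/mL at 6 days, with 1342 CPM for endothelial and 29.5 CPM for basal cell markers. That library also gave the 6553 CPM for type I and the 196 CPM for heart muscle. Log2 fold changes that rest on replicate 2 of 20 mg/mL at 12 days are also given without it.

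Epha4 was lower in 20 mg/mL lungs than in control lungs at 6 days, whereas the groups of 12 days overlapped. On day 6 it had 25.8, 27.2 and 24.8 CPM in the 20 mg/mL lungs, against 57.5, 57.1 and 43.6 CPM in control lungs. These values rest on 127, 225 and 194 counts in the 20 mg/mL libraries and on 451, 421 and 310 counts in the controls. The 3 exposed libraries lay within a narrow band that did not overlap the controls, and replicate 3 of the controls was the lowest of its group. This gave a log2 fold change of -1.02 (SE 0.21, 95% interval -1.47 to -0.58), and the ratio of the group means was 0.491. Because these are the values that chose the gene, no test is attached to them. The SE and interval do not allow for that choice, and nothing is read from the interval leaving out 0. In 4.67% of all genes tested the 20 mg/mL libraries of that day likewise lay below the controls without overlap.

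The lower doses of day 6 lay between those groups. Epha4 had 31.3, 31.9 and 37.7 CPM at 5 mg/mL and 29.2, 36.8 and 43.2 CPM at 10 mg/mL. All 9 exposed libraries of day 6 were below all 3 controls, but by a small margin, since replicate 3 at 10 mg/mL (43.2 CPM) and replicate 3 of the controls (43.6 CPM) nearly met. Such an ordering of 9 exposed below 3 control libraries was found in 0.14% of all genes tested, and nothing is read from it because the same controls chose the gene. The log2 fold change against control was -0.65 (SE 0.21) for the 5 mg/mL group. It was -0.54 (SE 0.21) for the 10 mg/mL group, so the level at 5 mg/mL was not above that at 10 mg/mL. Averaged over the 3 doses the log2 fold change was -0.74 (SE 0.17), and a line in dose gave -0.45 (SE 0.10) per 10 mg/mL. The 5 and 10 mg/mL values are not independent of the 20 mg/mL value, since the 3 comparisons share their control libraries. The SEs of these values, of the average and of the slope do not allow for the choice of the gene.

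**Figure D1:**
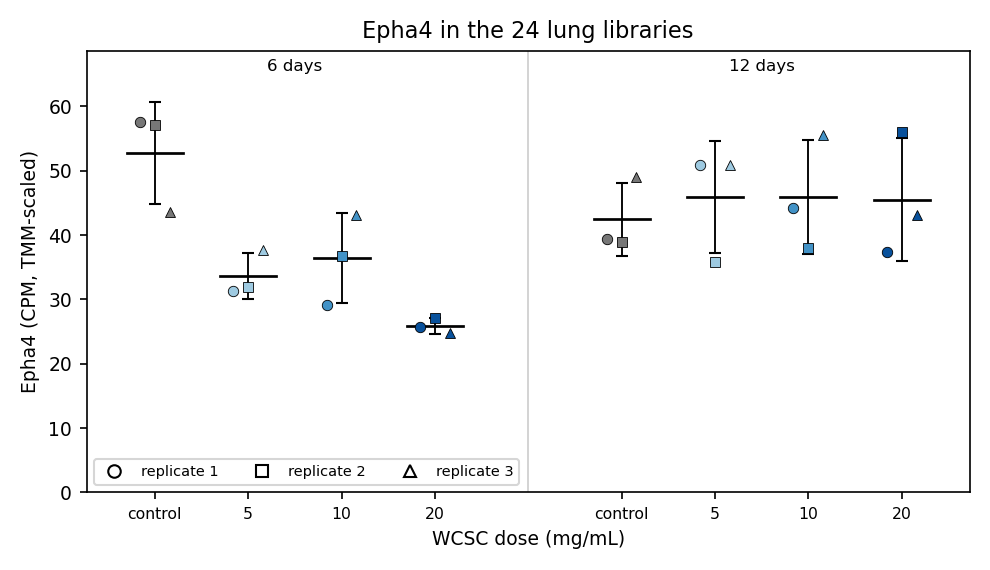
Epha4 in each of the 24 libraries, in CPM after TMM scaling (vertical axis), by WCSC dose in mg/mL (horizontal axis) and day; points are libraries, with a marker shape for each replicate number, horizontal lines are group means and bars are ± 1 SD (n = 3). At 6 days the exposed libraries lie between 24.8 and 43.2 CPM and the controls between 43.6 and 57.5 CPM, whereas the 4 groups of day 12 overlap.

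The libraries of day 12 did not enter the choice of Epha4, and their comparison with the day 12 controls is a test in its own right. Epha4 had 37.4, 56.0 and 43.1 CPM in the 20 mg/mL lungs, against 39.4, 39.0 and 49.0 CPM in control lungs at 12 days. It had 50.9, 35.9 and 50.9 CPM at 5 mg/mL and 44.2, 38.0 and 55.6 CPM at 10 mg/mL. All 4 groups overlapped, and the highest value at 20 mg/mL belonged to replicate 2, the library with high heart muscle markers. The log2 fold change at 20 mg/mL was 0.10 (95% interval -0.34 to 0.54, edgeR adjusted p = 0.998), and without that library it was -0.08. The average over the 3 doses gave 0.11 (95% interval -0.25 to 0.47, edgeR adjusted p = 1), and 0.05 without that library.

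The 20 mg/mL effect at 12 days minus that at 6 days was 1.12 on the log2 scale for Epha4 (SE 0.30, 95% interval 0.50 to 1.75), and 0.95 without replicate 2 of 20 mg/mL at 12 days. This difference contains the contrast that chose the gene, so it too is a description. Its SE and interval do not allow for that choice, and nothing is read from the interval leaving out 0. In that comparison edgeR called 0 of the 11421 genes and DESeq2 called 0 as well, and 435 genes (3.81%) had an unadjusted edgeR p under 0.05. In the controls alone Epha4 averaged 42.5 ± 5.65 CPM in controls at 12 days and 52.7 ± 7.89 CPM in controls at 6 days (SD, n = 3 each). Their ranges overlapped and the log2 fold change between them was -0.31 (SE 0.21), in which the day 6 controls are among the values that chose the gene. Averaged over the 4 groups of each day, the log2 fold change of Epha4 was 0.32 (SE 0.11), or 0.28 without replicate 2 of 20 mg/mL at 12 days. That value also contains the 20 mg/mL libraries of day 6, and its SE does not allow for the choice of the gene.

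Ordered by mean, Epha4 was at 25.9 ± 1.20 CPM at 20 mg/mL and 6 days, 33.6 ± 3.56 CPM at 5 mg/mL and 6 days, 36.4 ± 7.01 CPM at 10 mg/mL and 6 days, and then at 42.5 to 46.0 CPM in the 4 groups of day 12 (n = 3 in each group). The controls of day 6 were highest, at 52.7 CPM. The range of the lowest group did not overlap that of its neighbour, and every other pair of neighbours in this order overlapped.

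Epha4 varied little between replicates. Its biological coefficient of variation was 0.189, close to the 0.188 of Ephb3 and below the common value of 0.335 over all genes tested, and the median library held enough reads for a counting error of 5.83%. The common value pools genes of low and high counts, and Epha4 was chosen on these libraries. Its small spread is therefore not read as a trait of the gene. In whole-lung RNA, fewer cells of a type and less RNA per cell cannot be told apart. Among the 18 marker lists checked, 3 had summed levels that did not overlap between 20 mg/mL and control lungs at 6 days. The 5 measured alveolar type II markers (Sftpc, Sftpb and others) summed to 22670 to 27970 CPM in the 20 mg/mL lungs and 17440 to 22500 CPM in controls. The 4 macrophage markers with counts summed to 217 to 251 CPM in the 20 mg/mL lungs and 138 to 211 CPM in controls, and the fifth, Marco, was at 0 in all 24 libraries. The 3 B cell markers summed to 20.9 to 23.8 CPM in the 20 mg/mL lungs and 26.7 to 36.6 CPM in controls. The 7 endothelial markers overlapped, at 1342 to 2458 CPM in the 20 mg/mL lungs and 2014 to 2547 CPM in controls, with 6 of 7 lower. The low end came from replicate 3 of 20 mg/mL, and replicates 1 and 2 had 2236 and 2458 CPM. The part of these shifts in the Epha4 values was not tested.

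The other A-class receptors bind mainly ephrin-As. Epha1, an epithelial receptor of the family, lay between 9.78 and 26.8 CPM over the 24 libraries. At 6 days it averaged 16.8 ± 3.89 CPM in 20 mg/mL lungs and 18.3 ± 2.14 CPM in control lungs (log2 fold change -0.12, 95% interval -0.72 to 0.49). At 12 days it averaged 13.2 ± 4.44 CPM in 20 mg/mL lungs and 15.0 ± 4.38 CPM in control lungs (log2 fold change -0.19, 95% interval -0.80 to 0.43; SD, n = 3 in each group). Without replicate 2 of the 20 mg/mL group the day 12 value was -0.02. Its libraries overlapped their controls at all 3 doses on both days.

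Epha2, the receptor that ephrin-A1 is best known to activate in epithelium and endothelium, scattered widely. It had 11.6, 7.44 and 18.3 CPM at 5 mg/mL and 6 days, against 4.08, 6.50 and 7.04 CPM in the controls of that day. Those groups did not overlap, yet the log2 fold change of 1.08 had a 95% interval of -0.55 to 2.71 (unadjusted p = 0.185, edgeR adjusted p = 0.896). At 10 mg/mL Epha2 had 2.87, 2.24 and 10.1 CPM and at 20 mg/mL it had 6.70, 2.78 and 9.06 CPM on the same day, so the higher level was not repeated at the higher doses. The controls of day 12 alone spanned 0.202, 6.68 and 18.5 CPM, which came from 1, 37 and 133 counts. The biological coefficient of variation of Epha2 was 0.646.

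Epha7, another A-class receptor known from brain patterning, was a low-count gene with 18 to 56 counts per library. It had 2.27, 4.23 and 2.52 CPM at 10 mg/mL and 6 days, against 6.89, 4.47 and 6.05 CPM in controls, without overlap (log2 fold change -0.94, SE 0.43, unadjusted p = 0.0400, edgeR adjusted p = 0.989). In that comparison the basal cell markers (0.842 to 2.27 CPM in exposed lungs, 2.42 to 10.7 CPM in controls) and the neuron and glia markers (4.79 to 9.12 CPM in exposed lungs, 1.79 to 4.47 CPM in controls) did not overlap, and their part in the Epha7 values was not tested. The 20 mg/mL libraries of that day, at 7.72, 5.19 and 6.64 CPM, overlapped the controls. At 12 days the 20 mg/mL libraries had 4.35, 4.60 and 4.52 CPM, just under the lowest of the controls at 6.06, 10.1 and 4.86 CPM (log2 fold change -0.64, SE 0.43, unadjusted p = 0.153, edgeR adjusted p = 0.998). That value was -0.65 without replicate 2 of 20 mg/mL and -0.28 without replicate 2 of the controls. Epha3, a further A-class receptor, had 0 to 12 counts per library and was at 0 in 5 of 24. Its group means lay between 0.204 and 1.06 CPM, and its 95% interval at 20 mg/mL and 6 days ran from -2.51 to 2.97 on the log2 scale.

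**Figure D2:**
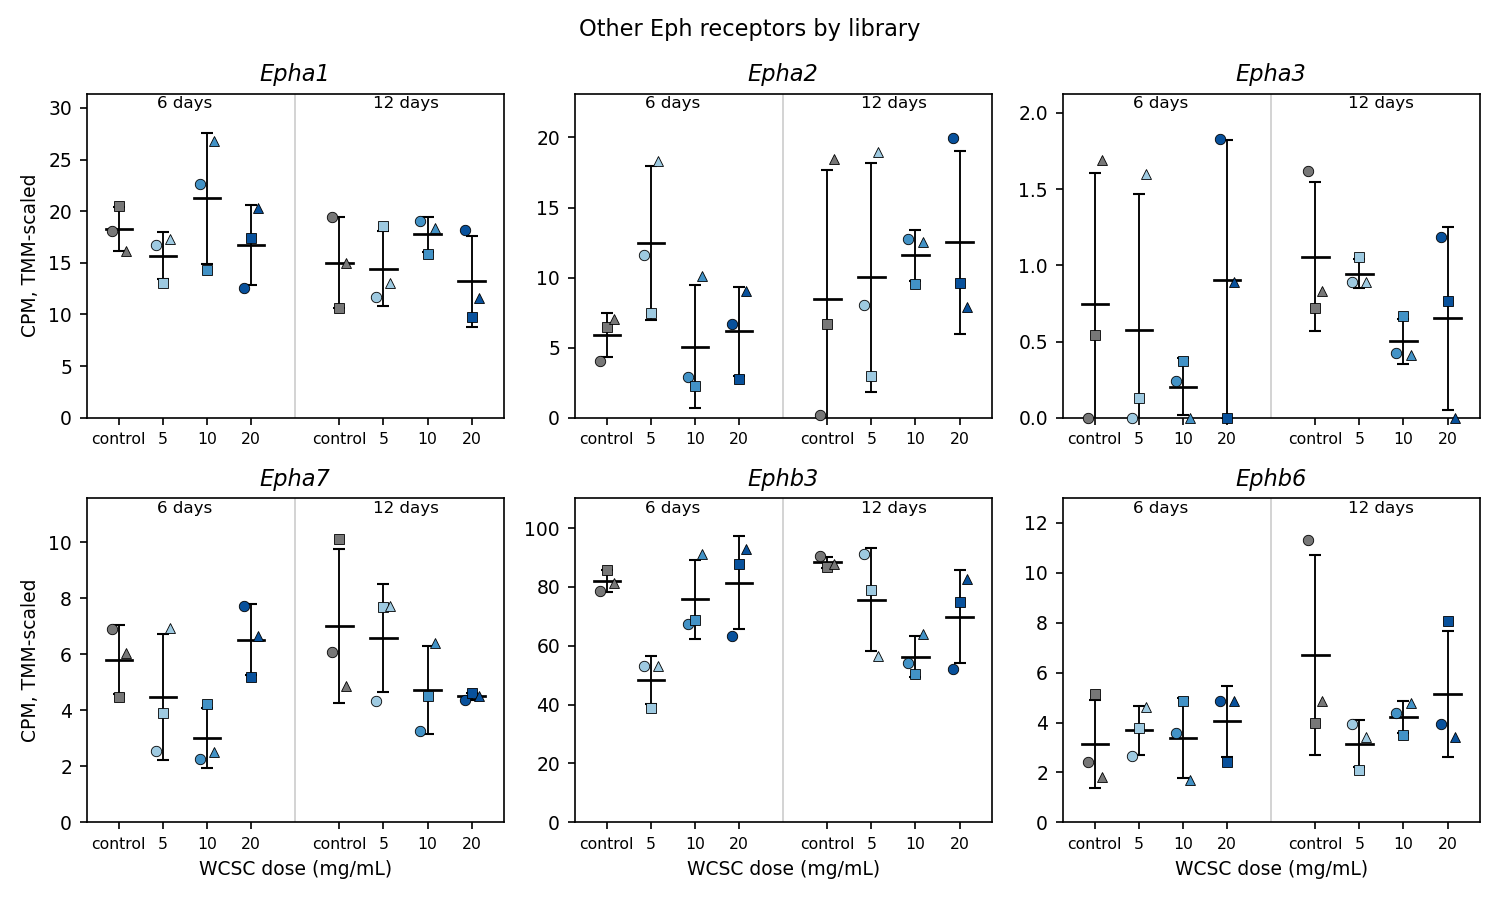
The 6 other tested receptors in each of the 24 libraries, in CPM after TMM scaling (vertical axes, which differ between panels), by WCSC dose in mg/mL (horizontal axes) and day; points are libraries with a marker shape for each replicate number, lines are group means and bars are ± 1 SD (n = 3), drawn from 0 upwards. Ephb3 at 5 mg/mL and 6 days lies between 38.9 and 53.2 CPM, below its controls at 78.6 to 85.9 CPM, and Epha2 spreads from 0.202 to 18.5 CPM within 1 control group.

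Of the B-class receptors, Ephb3 had the most counts, 264 to 729 per library. EphB3 binds B-class ephrins and is known for keeping cells in their place along the intestinal crypt. At 5 mg/mL and 6 days Ephb3 had 53.1, 38.9 and 53.2 CPM, against 78.6, 85.9 and 81.3 CPM in control lungs. The groups were well apart, without overlap, as 4.13% of all genes tested were in the lower direction. Replicate 2 was the lowest of the exposed libraries. The log2 fold change was -0.76 (SE 0.21, 95% interval -1.20 to -0.32, unadjusted p = 0.00157, edgeR adjusted p = 0.896), the eighth smallest p of that comparison. Ephb3 overlapped the controls at the higher doses of that day, with 67.4, 68.7 and 91.2 CPM at 10 mg/mL and 63.3, 87.9 and 93.0 CPM at 20 mg/mL. There the log2 fold change for 20 mg/mL was -0.01 (95% interval -0.44 to 0.43), and its sign was positive under upper-quartile scaling.

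At 12 days the Ephb3 libraries of the 10 and 20 mg/mL groups lay below the controls without overlap, as in 4.55% and 4.11% of all genes tested. It had 54.3, 50.5 and 64.2 CPM at 10 mg/mL, against 90.6, 86.8 and 87.7 CPM in control lungs, without overlap (log2 fold change -0.65, SE 0.21, 95% interval -1.09 to -0.21, unadjusted p = 0.00547, edgeR adjusted p = 1). It had 52.3, 75.0 and 82.6 CPM at 20 mg/mL, also below every control of that day (log2 fold change -0.34, SE 0.21, unadjusted p = 0.124, edgeR adjusted p = 0.998). That value was -0.39 without replicate 2 of the 20 mg/mL group and -0.17 without its replicate 1, the lowest library. At 5 mg/mL, where it had 91.2, 78.8 and 56.7 CPM, the libraries overlapped the controls. Averaged over the 3 doses the log2 fold change was -0.40 (SE 0.17, 95% interval -0.75 to -0.06, unadjusted p = 0.0250, edgeR adjusted p = 1), and -0.42 without replicate 2 of 20 mg/mL.

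The controls of Ephb3 were the tightest of its 8 groups, at 88.4 ± 1.94 CPM at 12 days and 82.0 ± 3.71 CPM at 6 days (SD, n = 3 each), and those of day 12 lay above those of day 6 without overlap, as in 4.72% of all genes tested (log2 fold change 0.11, edgeR adjusted p = 1). The exposed groups had SDs of 7.04 to 17.5 CPM. Ordered by mean, 5 mg/mL at 6 days was lowest at 48.4 CPM, then 10 mg/mL at 12 days at 56.3 CPM, and the 2 control groups were highest. Each neighbour in that order overlapped the next, apart from the 2 control groups. Without any 1 library the log2 fold change at 5 mg/mL and 6 days stayed between -0.83 and -0.62, and that at 10 mg/mL and 12 days between -0.75 and -0.58. Of the marker lists, lymphatic endothelium was the one that did not overlap at 5 mg/mL and 6 days, with 447 to 549 CPM for its 3 markers in exposed lungs and 353 to 440 CPM in controls, though of the 2 markers tested 1 was higher and 1 lower. At 20 mg/mL and 12 days the 4 neutrophil markers summed to 293 to 460 CPM in exposed lungs and 515 to 588 CPM in controls. The 3 basal cell markers there summed to 5.25 to 114 CPM in exposed lungs, highest in replicate 2, and 0.694 to 3.03 CPM in controls. No list stood apart in this way at 10 mg/mL and 12 days. The part of these markers in the Ephb3 values was not tested.

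Ephb6, a receptor whose kinase domain is inactive, had 12 to 56 counts per library. At 5 mg/mL and 12 days it had 3.95, 2.11 and 3.41 CPM, against 11.3, 3.97 and 4.86 CPM in control lungs, and the nearest libraries, at 3.95 and 3.97 CPM, almost met (log2 fold change -1.07, SE 0.54, unadjusted p = 0.0570, edgeR adjusted p = 1). Replicate 1 of those controls, at 56 counts, was the highest of the 24 libraries. In that comparison the summed markers of 7 lists did not overlap. T cell (25.4 to 32.3 CPM in exposed lungs, 33.9 to 45.9 CPM in controls), B cell (12.2 to 17.6 CPM in exposed lungs, 21.4 to 60.4 CPM in controls), neutrophil (187 to 401 CPM in exposed lungs, 515 to 588 CPM in controls) and arterial endothelial markers (191 to 224 CPM in exposed lungs, 228 to 252 CPM in controls) were lower. Alveolar type II (21640 to 22210 CPM in exposed lungs, 17250 to 19900 CPM in controls), basal cell (3.47 to 4.90 CPM in exposed lungs, 0.694 to 3.03 CPM in controls) and smooth muscle markers (822 to 1293 CPM in exposed lungs, 721 to 782 CPM in controls) were higher. Their part in the Ephb6 values was not tested. Ephb2, a receptor with a large part in axon guidance and the intestinal crypt, had 6 counts in all, of which 4 were in 1 control library of day 6. It was at 0 in 21 of 24 libraries, and 3 counts, the limit that a count of 0 allows, came to between 0.294 and 0.609 CPM depending on the library (counting error only). No direction is given for it.

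**Figure D3:**
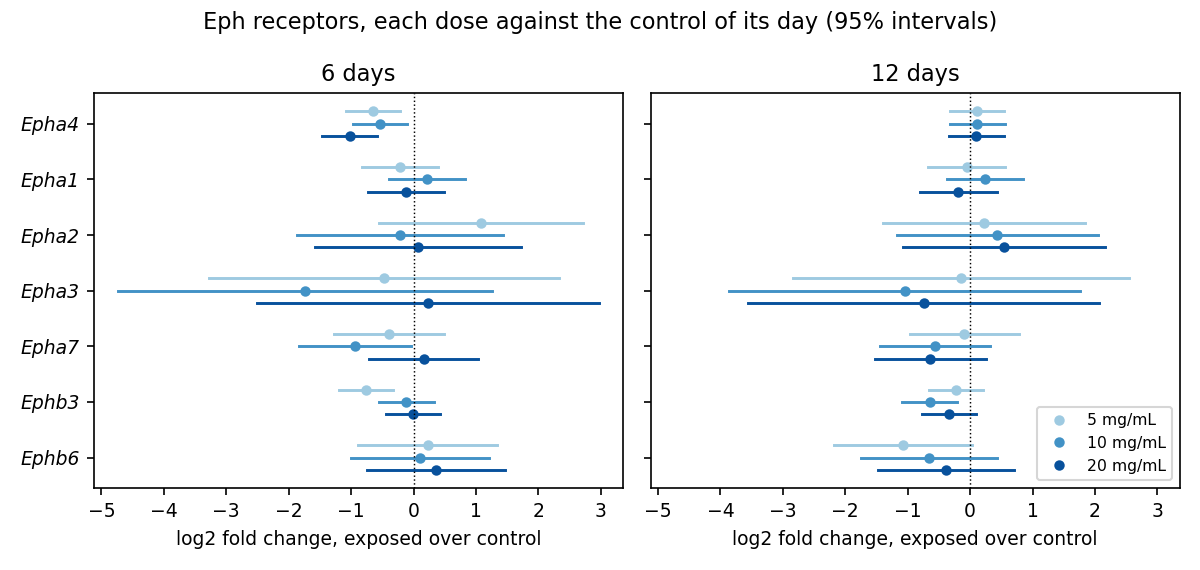
Log2 fold change of each tested receptor (rows) at 5, 10 and 20 mg/mL over the control of the same day (horizontal axis), at 6 days (left) and 12 days (right); points are edgeR estimates and lines are 95% intervals from the fit over 24 libraries. The day 6 estimates of Epha4 contain the values that chose the gene and are a description, and their intervals do not allow for that choice. The intervals of Epha4 at 12 days include 0 at all 3 doses, and the interval of Epha3 is the widest of each panel.

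Read as a family, the receptors did not move together with dose. On day 6, 5 of the 7 tested members had a log2 fold change below 0 with 5 mg/mL and 5 with 10 mg/mL, with medians of -0.39 and -0.22. With 20 mg/mL, 3 were below 0 and 4 above, with a median of 0.07, against -0.0022 over all genes tested. On day 12, 5 of 7 were below 0 with 5 mg/mL, 4 with 10 mg/mL and 5 with 20 mg/mL, with medians of -0.09, -0.56 and -0.34. Without replicate 2 of 20 mg/mL, 6 of 7 were below 0 at that dose and the median was -0.39. Epha4 is among these members, and the other 6 had medians of -0.31, -0.17 and 0.12 at the 3 doses of day 6, low to high. Over all genes tested the medians of these 6 comparisons lay between -0.01 and 0.01.

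By edgeR no member passed at an adjusted p of 0.05 in any of the 13 comparisons made. Of the 11421 genes tested, edgeR called 0.00876% in the slope over dose at 6 days and 0% in each of the other 12 comparisons. Counted at an unadjusted p under 0.05 on day 6, the members were 2 of 7 for 5 mg/mL (4.71% of all genes tested), 2 for 10 mg/mL (2.7%) and 1 for 20 mg/mL (4.06%). On day 12 they were 0 for 5 mg/mL (1.25%), 1 for 10 mg/mL (2.09%) and 0 for 20 mg/mL (3.69%). Epha4 is 1 of the members counted at each dose of day 6, which its choice bears on, and without it the counts there were 1, 1 and 0 of 6. Under other tools Epha4 was the 1 member called, by DESeq2 in the 20 mg/mL comparison of day 6 (0.0263% of genes called) and in the slope of day 6 (0.142%), and by voom (limma, weighted by sample quality) in the average over doses of day 6 (7.25%). All 3 comparisons hold the libraries that chose Epha4, and nothing is read from these calls.

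Non-overlapping groups, a description that uses only the order of the libraries, gave a like picture. On day 6 the members below their controls without overlap were Epha4 and Ephb3 for 5 mg/mL, Epha4 and Epha7 for 10 mg/mL and Epha4 for 20 mg/mL, where 4.13%, 3.23% and 4.67% of all genes tested did so. Epha4 was chosen on these controls and the 20 mg/mL libraries, so nothing is read from its place here. Of the other 6 members, 1, 1 and 0 lay below their controls at these doses. On day 12 the members below were Ephb6 for 5 mg/mL, Epha3 and Ephb3 for 10 mg/mL, and Epha7 and Ephb3 for 20 mg/mL, beside 3.94%, 4.55% and 4.11% of genes. The 1 member above its controls without overlap was Epha2 for 5 mg/mL at 6 days, beside 4.19% of all genes. Epha3 at 10 mg/mL and 12 days rests on 3, 4 and 3 counts in exposed libraries and 8, 4 and 6 in controls.

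Across the 2 days, 6 of the 7 tested members had a higher mean at 12 days when the 4 dose groups were averaged. The median log2 fold change was 0.32, against -0.01 over all genes tested, of which 51.2% were lower. Epha4, chosen for a low level at 6 days, is among the 6. Of the other 6 members tested, 5 were higher and 1 lower, with a median of 0.31. Without replicate 2 of 20 mg/mL at 12 days the median was 0.27 with Epha4 and 0.25 without it. The largest estimate was that of Epha2, at 0.61 (95% interval -0.20 to 1.43), and Epha1 was the 1 member below 0, at -0.25 (95% interval -0.56 to 0.05). Without that library they were 0.65 for Epha2 and -0.21 for Epha1. At an unadjusted p under 0.05 the count was 0 of the 6 members other than Epha4, beside 9.33% of all genes tested, and edgeR called 0 genes after adjustment. Epha4 also had an unadjusted p under 0.05, from which nothing is read, since the 20 mg/mL libraries of day 6 that chose it for a low level are part of this comparison. Ephb3 stood at 0.03 (95% interval -0.19 to 0.24), the narrowest interval among the members, and at 0.01 without replicate 2 of 20 mg/mL at 12 days.

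Of the other Eph receptors, Ephb1, a B-class receptor known from axon guidance, had 35 to 138 counts per library. It had 13.2, 6.52 and 5.61 CPM at 20 mg/mL and 6 days, against 12.2, 17.9 and 16.5 CPM in control lungs, and the groups overlapped through replicate 1 of both (log2 fold change -0.90, 95% interval -1.99 to 0.20, unadjusted p = 0.104, edgeR adjusted p = 1). That value was -0.67 without replicate 3 of 20 mg/mL and -1.35 without its replicate 1. The 3 libraries of Ephb1 at 20 mg/mL and 12 days ran from 4.27 to 26.5 CPM, the lowest and the highest of all 24. The highest was replicate 2, and the log2 fold change there was -0.25 (95% interval -1.34 to 0.83) with it and -1.12 (unadjusted p = 0.0499, edgeR adjusted p = 1) without it. Epha5 had 65 counts over all libraries, with 0 in each of the 3 controls of day 6 and at most 17 in any library, and was not tested. Epha10, a kinase-inactive receptor, was at 0 in all 24 libraries. Epha6 and Epha8 were not analysed here.

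Among the ligands, Efna1 and Efnb1 were well covered in every library. Efna1, which encodes ephrin-A1, had 570 to 1641 counts. In 20 mg/mL lungs at 6 days it had 143, 187 and 187 CPM, against 147, 150 and 127 CPM in control lungs (log2 fold change 0.28, 95% interval -0.13 to 0.70, edgeR adjusted p = 1). The 10 mg/mL libraries of that day, at 196, 169 and 179 CPM, were above all controls (log2 fold change 0.36, SE 0.20, unadjusted p = 0.0866, edgeR adjusted p = 0.989), where 2.99% of all genes tested were higher without overlap. At 12 days Efna1 averaged 155 ± 40.5 CPM in 20 mg/mL lungs and 155 ± 34.4 CPM in control lungs (SD, n = 3 each), and its log2 fold change without replicate 2 of the 20 mg/mL group was 0.21.

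Efnb1, which encodes ephrin-B1, had 147 to 766 counts. It had 75.9, 52.4 and 53.8 CPM at 20 mg/mL and 6 days, against 63.3, 75.5 and 90.9 CPM in control lungs (log2 fold change -0.34, 95% interval -1.02 to 0.34). At 12 days it had 101, 73.4 and 93.5 CPM at 20 mg/mL, against 29.7, 84.9 and 88.3 CPM in controls (log2 fold change 0.40, 95% interval -0.28 to 1.08). The low control of day 12, replicate 1, was the lowest of the 24 libraries, and the day 12 value was 0.05 without it. Leaving out each other library gave up to 0.64 (without replicate 3 of those controls), and 0.52 without replicate 2 of 20 mg/mL.

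The remaining ligands were scarce. Efna4 (ephrin-A4) had 2 to 34 counts per library, and Efnb2, the arterial ephrin-B2, had 0 to 28 with 4 libraries at 0. Their 95% intervals for 20 mg/mL ran from -2.19 to 1.33 for Efna4 and from -2.54 to 2.63 for Efnb2 at 6 days. At 10 mg/mL and 12 days Efnb2, at 0.667 to 1.42 CPM, lay just below its controls at 1.44 to 3.89 CPM. Those groups held 20 and 48 counts in all, and 4.55% of all genes tested were lower without overlap there. Efnb3 had 67 counts, of which 31 were in replicate 2 of 20 mg/mL at 12 days, the library with high heart muscle markers. Efna5 had 4 counts in all, and Efna2 was at 0 in all 24 libraries. Efna3 was not analysed here. Of the 4 ephrins tested, edgeR called 0 in every comparison, and in the 6 comparisons of a dose with its control none reached an unadjusted p of 0.05.

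**Figure D4:**
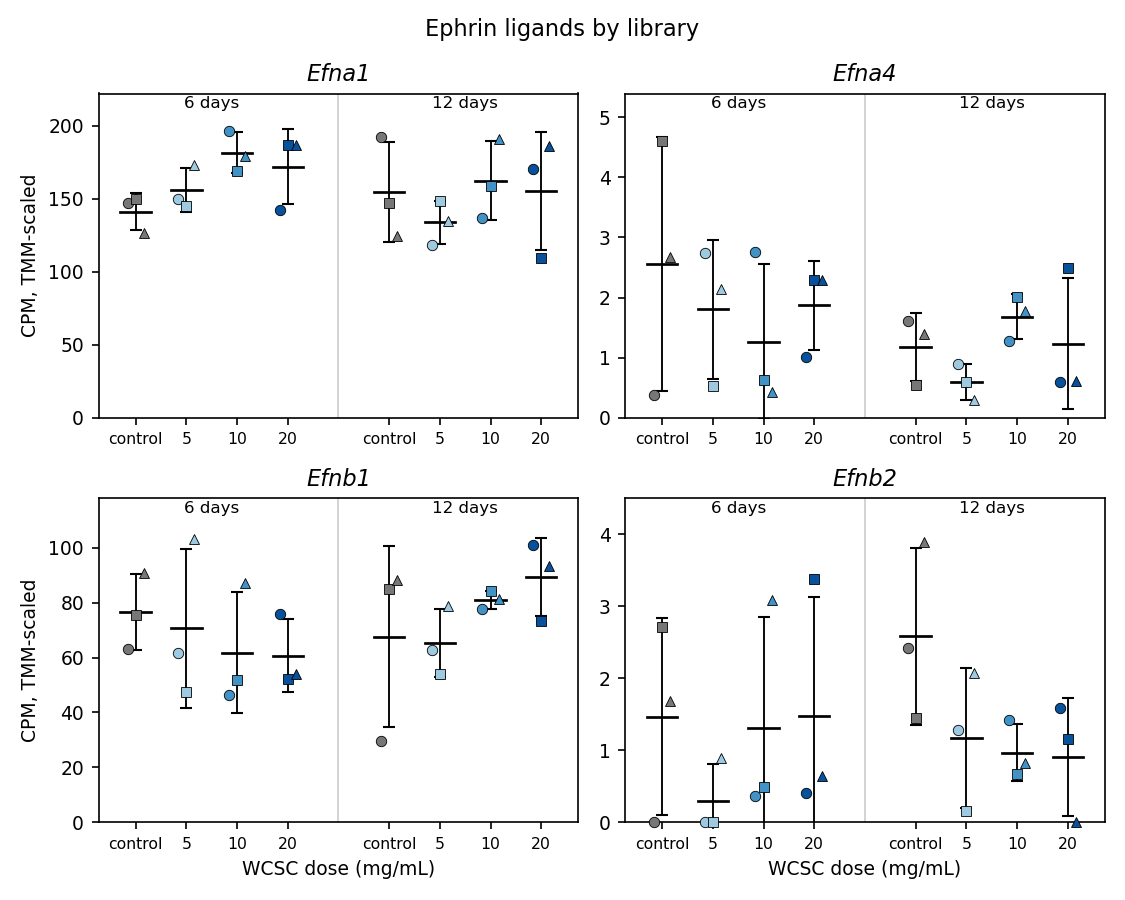
The 4 tested ephrin genes in each of the 24 libraries, in CPM after TMM scaling (vertical axes, which differ between panels), by WCSC dose in mg/mL (horizontal axes) and day; points are libraries with a marker shape for each replicate number, lines are group means and bars are ± 1 SD (n = 3), drawn from 0 upwards. Efna1 at 10 mg/mL and 6 days, at 169 to 196 CPM, lies above its controls at 127 to 150 CPM, and Efna4 and Efnb2 stay below 5 CPM.

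Downstream of the receptors, a list of 60 genes for Eph signalling (among them kinases, adaptors, phosphatases, proteases and PDZ partners) had 57 genes with a row and 56 tested. For 20 mg/mL at 6 days 30 were above 0 and 26 below, with a median log2 fold change of 0.02, and for 20 mg/mL at 12 days 24 were above and 32 below, with a median of -0.05 (27 above, 29 below and a median of -0.04 without replicate 2 of 20 mg/mL). By edgeR none passed in either direction in any comparison. Over all genes tested the medians were -0.0022 and 0.01.

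For 20 mg/mL at 6 days, 1 gene of the list was higher and 1 lower at an unadjusted p under 0.05, of 56 tested, beside the 4.06% of all genes given above. The smaller p belonged to Arhgef15, a guanine nucleotide exchange factor of the ephexin family, which acts downstream of Eph receptors. It was named for that p among the 56 genes tested, and its unadjusted p and interval there do not allow for this. Arhgef15 had 61.9, 94.1 and 67.8 CPM in the 20 mg/mL lungs, against 115, 166 and 110 CPM in control lungs. The groups did not overlap (4.67% of all genes tested were lower in this way), and replicate 2 was the highest of each. This gave a log2 fold change of -0.80 (SE 0.23, 95% interval -1.29 to -0.32, unadjusted p = 0.00240, edgeR adjusted p = 0.871). At 12 days it had 113, 88.4 and 103 CPM at 20 mg/mL, against 113, 117 and 134 CPM in controls, a log2 fold change of -0.26 (95% interval -0.74 to 0.23), or -0.17 without replicate 2 of 20 mg/mL. In 5 mg/mL lungs it was lower than its controls without overlap on both days. Of all genes tested, 4.13% did so at 6 days and 3.94% at 12 days. In 10 mg/mL lungs Arhgef15 overlapped its controls on both days, at 74.2 to 133 CPM at 6 days and 89.6 to 125 CPM at 12 days. Of the list, 4 genes were lower and 5 higher without overlap for 20 mg/mL at 6 days, beside 4.67% and 4.08% of all genes tested. For 5 mg/mL, 3 were lower and 3 higher on each day. Of all genes tested, 4.19% were higher without overlap there at 6 days and 3.85% at 12 days. Arhgef15 had a log2 fold change of -0.46 at 5 mg/mL on each day. The unadjusted p was 0.0629 at 6 days and 0.0604 at 12 days, and the edgeR adjusted p was 0.896 at 6 days and 1 at 12 days. The 5 mg/mL value of 6 days shares its controls with the 20 mg/mL value of that day and is not independent of it. Without any 1 library that 20 mg/mL value stayed between -1.005 and -0.59. Arhgef15 is expressed mainly in endothelium, whose 7 markers at 20 mg/mL and 6 days are given above. At 5 mg/mL 6 of the 7 were lower at 12 days and 5 of 7 at 6 days, with summed levels that overlapped, and the arterial endothelial markers of 12 days did not overlap, as given beside Ephb6. The part of these markers in the Arhgef15 values was not tested.

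Between the days, 1 gene of the list was higher and 4 lower at an unadjusted edgeR p under 0.05, of 56 tested, beside 9.33% of all genes. Vav2 and Ptpro had the smallest p of the list. Vav2, a guanine nucleotide exchange factor that is recruited to activated Eph receptors, ranged from 28.2 to 54.6 CPM at 12 days and from 29.7 to 59.0 CPM at 6 days, and the log2 fold change averaged over the 4 dose groups was -0.39 (SE 0.12, unadjusted p = 0.00266, edgeR adjusted p = 0.321). Ptpro, a receptor tyrosine phosphatase shown in chick to remove phosphate from Eph receptors, ranged from 23.2 to 38.0 CPM at 12 days and from 24.4 to 68.4 CPM at 6 days, with a log2 fold change of -0.41 (SE 0.14, unadjusted p = 0.00846, edgeR adjusted p = 0.410). The days overlapped for both genes, and the values were -0.37 for Vav2 and -0.38 for Ptpro without replicate 2 of 20 mg/mL at 12 days. For 20 mg/mL against control the 95% interval of both genes included 0 on either day.

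The genes whose level over the 24 libraries was most like that of Epha4 were taken from 8855 named genes with a mean of at least 5 CPM, by Pearson's r of log2 CPM. They were Klf4, a zinc finger transcription factor (r = 0.74), Espn, which encodes the actin bundler espin (r = 0.74), Pik3ca, the catalytic subunit of a phosphoinositide kinase (r = 0.74), Slc25a32, a mitochondrial carrier (r = 0.70), and Zbtb24, a zinc finger protein (r = 0.70). Their log2 fold changes at 20 mg/mL and 6 days were -0.59, -1.34, -0.40, -0.75 and -0.58 in that order, which follows from a choice over libraries that include those. Without replicate 3 of 20 mg/mL at 6 days, 0 of these 5 were among the 5 nearest genes. The coefficients at 12 days alone were lower, from 0.19 for Pik3ca to 0.59 for Zbtb24. The libraries share their depth and scaling, and no p is attached.

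After the 8 group means were taken out, so that only the spread between replicates remained, 5 other genes led. They were Sec61a2, a translocon subunit (r = 0.76), Pygm, the muscle glycogen phosphorylase (r = 0.69), Vps25, a subunit of an endosomal sorting complex (r = 0.69), Pkdcc, a secreted kinase (r = 0.68), and Urgcp (r = 0.68). Within the family, Pearson's r with Epha4 over 24 libraries was highest for Ephb1 (0.36) and Efnb1 (0.36) and lowest for Efna1 (-0.43). Ephb3 stood at 0.18 and Epha1 at -0.15. The libraries at 20 mg/mL and 6 days, which chose Epha4, are among the points.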

How the data were processed

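RNA was extracted with Trizol and made into libraries with a Lexogen QuantSeq kit, per the labels' protocols. Bowtie2, bedtools and build rn6 appear in the submitters' processing notes without a stated role. No source used here gives versions, annotation or strand setting, so reads of overlapping or antisense genes cannot be told apart. The authors deposited raw counts per gene symbol, 1 table per library, with 17048 lines. For the 167 lines repeating a symbol (0.772% of counts), the line with most counts was kept among those sharing it. Genes were filtered with filterByExpr, scaled by TMM (factors 0.804 to 1.12) and fitted with the quasi-likelihood method of edgeR 4.0.16 in R 4.3.3, in 1 model of 8 group means over 24 libraries (16 residual degrees of freedom). Tests were two-sided, with Benjamini-Hochberg adjustment over 11421 genes and a threshold of 0.05.

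CPM were computed after TMM scaling, with a prior count of 2 for log2 values. Alternatives were DESeq2 1.42.0, limma 3.58.1 (voom with sample quality weights), RLE and upper-quartile scaling, no filter on low counts, a fit to the compared groups only, a replicate block, a covariate for genes detected after thinning to 1 depth, and leaving out each library. The fitting code was tested on simulated data. No value column was left unused. Members, gene lists and markers were chosen with earlier results of these data known. Named genes were all members, ephrins and other Eph receptors with a row, signalling genes with unadjusted p under 0.01 in the 20 mg/mL comparisons or between days, and the 5 genes most like Epha4 before and after removing group means.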

Additional observations from a re-analysis of the deposited data

How the results depend on the processing

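The log2 fold change of Epha4 at 20 mg/mL and 6 days stayed between -1.15 and -0.96 under the 32 alternatives. Epha4 was called where edgeR did not call it with DESeq2 at 20 mg/mL and 6 days (-1.02) and in the slope over dose at 6 days (-0.44), and with voom in the average over doses at 6 days (-0.73), where voom called 828 genes and edgeR 0. These comparisons hold the libraries that chose the gene, so nothing is read from the calls. Leaving out a library was run in edgeR, which did not call Epha4 with or without any of them, and not in DESeq2 or voom. At 12 days its sign was not stable at 10 or 20 mg/mL, in the average over doses or in the slope. At 5 mg/mL it stayed positive under the 32 alternatives (0.029 to 0.26). The average over doses was positive with each library left out (0.0495 to 0.22). Voom gave -0.085 at 20 mg/mL, -0.0068 for the average over doses and -0.054 for the slope, and leaving out each library in turn gave -0.077 to 0.22 at 20 mg/mL, -0.045 to 0.23 at 10 mg/mL and -0.052 to 0.10 for the slope. The lowest of these came without replicate 2 of 20 mg/mL at 12 days for the 20 mg/mL value and the slope, and without replicate 3 of 10 mg/mL at 12 days for the other.

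The numbers of the replicates were not taken to pair the samples, since same-numbered libraries did not all correlate above 0.1 in any pair of groups. As a hint from the data, 13 of 24 libraries correlated best with their own number, and among the 5 mg/mL, 10 mg/mL and control groups of day 6 the median correlation was 0.28 to 0.35 for the same number and -0.23 to -0.20 for other numbers. With the replicate block 1 gene (Cebpd, not a member) was called at 20 mg/mL and 6 days, and the block reversed Epha2 at that contrast (-0.0895), Efna1 at 20 mg/mL and 12 days (-0.0087) and Efna4 there (-0.11).

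Counts of genes called at 20 mg/mL and 6 days were 1 with RLE, 1 without the filter, 1 with the covariate (Cebpd each time), 3 with DESeq2 (Cebpd, Epha4, Hist1h1d) and 2 with voom, against 0 in edgeR; members called were 1 with DESeq2 there and in the slope at 6 days, and 1 with voom in the average at 6 days. DESeq2 called 2 genes at 5 mg/mL and 2 in the average over doses at 6 days, 1, 1 and 4 at 5, 10 and 20 mg/mL and 12 days, 9 and 11 in the slopes at 6 and 12 days, and 37 between the days. Voom called 5 at 10 mg/mL and 6 days, 2 at 20 mg/mL and 12 days, 2 and 3 in the slopes at 6 and 12 days, 1 in the average at 12 days and 16 between the days. The fit to the compared groups alone called 2 at 10 mg/mL and 1 at 20 mg/mL and 12 days, and 0 and 1 in the slopes at 6 and 12 days. In edgeR the slope at 6 days called 1 gene (Cebpd) and the others 0. Leaving out each library in turn, the counts ran from 0 to 2 at 20 mg/mL and 6 days, 0 to 2 at 5 mg/mL and 6 days, 0 to 2 and 0 to 1 in the slopes at 6 and 12 days, and 0 to 11 between the days (11 without replicate 3 of 20 mg/mL at 6 days).

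Signs that reversed, all in genes that passed no test, were as follows. Ephb3 at 20 mg/mL and 6 days was 0.016 with upper-quartile scaling, 0.00066 with DESeq2, 0.0049 in the compared groups alone and -0.11 to 0.14 with 1 library left out, and its difference between days was -0.016 to 0.069. At 20 mg/mL and 6 days voom gave -0.37 for Epha2, -0.94 for Epha3 and -0.48 for Efnb2, the covariate gave -0.10 for Epha2, and omissions gave -0.28 to 0.044 for Epha1, -0.34 to 0.43 for Epha2, -0.72 to 1.64 for Epha3, -0.94 to 0.31 for Efna4 and -1.43 to 0.84 for Efnb2. At 20 mg/mL and 12 days voom gave 0.0056 for Epha1, -0.45 for Efna4 and 0.10 for Vav2, upper-quartile scaling -0.027 for Efna1 and the covariate -0.086 for Efna4. Omissions there gave -0.49 to 0.034 for Epha1, -0.022 to 1.83 for Epha2, -0.86 to 0.21 for Ephb6, -1.12 to 0.19 for Ephb1, -0.15 to 0.21 for Efna1, -0.95 to 0.38 for Efna4 and -0.28 to 0.11 for Vav2. Arhgef15 between days was -0.0012 with the covariate and -0.011 to 0.10 with omissions. The cause of these changes was not tested.

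Of the 5 genes most like Epha4, 2 were shared when Spearman's rank correlation replaced Pearson's r, and 0 to 5 with 1 library left out, 0 of them without replicate 3 of 20 mg/mL at 6 days. With 3 libraries a group, intervals of the scarce receptors span several log2 units.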
